A study of Mus musculus with 209 samples.

Results

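Wild-type mouse MII oocytes, eggs arrested at metaphase of the second meiotic division, fell into sets that differed in how much added and ribosomal RNA their sequencing libraries held. A spike-in set held 10 libraries in which ERCC RNAs, synthetic transcripts that laboratories add to a sample, reached at least 0.01% of gene counts. A low-rRNA set held 3 libraries with less ERCC RNA and with under 1% of counts on Rn45s, the 45S ribosomal RNA precursor. Together they are 13 of the 14 wild-type (WT) oocytes with RNA and 13 of the 209 samples of the series. The other WT oocyte, replicate 14, was low in ERCC RNA but not in Rn45s and entered neither set. The members were chosen by the measured ERCC and Rn45s shares, with thresholds set after those values were seen, so neither share is a finding. The sets are not groups of the study.

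The series follows DNA hydroxymethylation and methylation through mouse germline and early embryonic development, and the oocyte libraries come from its single-cell RNA-seq. Spike-in WT and low-rRNA WT oocytes carry the same labels, namely WT genotype, MII oocyte and polyA RNA. Females were C57BL/6, 6 to 8 weeks old and superovulated with PMSG and hCG, and eggs were taken 14 to 15 hours after hCG, per the labels. As a second pair, 7 spike-in and 10 low-rRNA oocytes labelled N14 maternal KO, read here as a maternal knockout of the oocyte gene Nlrp14, were sorted by the same thresholds from 19 KO oocytes. They share the strain, age, hormone treatment and timing of the WT eggs. The WT and KO pairs share no library. Each library is 1 egg and no animal is named. Each set therefore counts as 1 sample, no test was possible between sets, and intervals cover counting error only. No molecular identifiers are given, so counts are not independent molecules.

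A fully grown mouse oocyte does not transcribe, and it finishes meiosis with stored maternal mRNA. During maturation some stored mRNAs, Mos and Plat among the classic ones, gain a long poly(A) tail in the cytoplasm and are translated, while others lose their tails and are degraded. A change of tail length can alter how well an mRNA is captured by oligo(dT) even when its amount is the same. In polyA RNA a count therefore reflects amount and capture together. The labels do not name the preparation of each library, so library making, egg maturity and poly(A) state cannot be told apart here.

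ERCC RNA took 0.0382 to 0.0586% of gene counts in spike-in WT libraries, against 0.00154 to 0.00251% in low-rRNA WT libraries. Just outside the spike-in set stood replicate 14 at 0.00266%, so no WT library lay near the threshold. Rn45s took 1.20 to 3.55% and 0.175 to 0.508% of counts in the spike-in and low-rRNA sets, with 2.38% in replicate 14. Total gene counts were 3933604 to 8966801 in spike-in libraries and 10600774 to 13052327 in low-rRNA libraries. Although shallower, the spike-in libraries detected 11492 to 12492 genes, and the low-rRNA libraries 9568 to 11536. At an equal depth of 3933604 counts the expected numbers were 11266 to 12031 and 8979 to 10943 genes. The spike-in libraries were thus richer in detected genes than the low-rRNA ones at matched depth, with no overlap between the sets. Replicate 14, also low in ERCC RNA, had 12785 genes at that depth, above every spike-in WT library. The 2 KO libraries that entered neither set had 12412 and 12520, above the 11669 to 12336 of spike-in KO libraries. More detected genes were therefore not particular to the spike-in set.

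**Figure D1:**
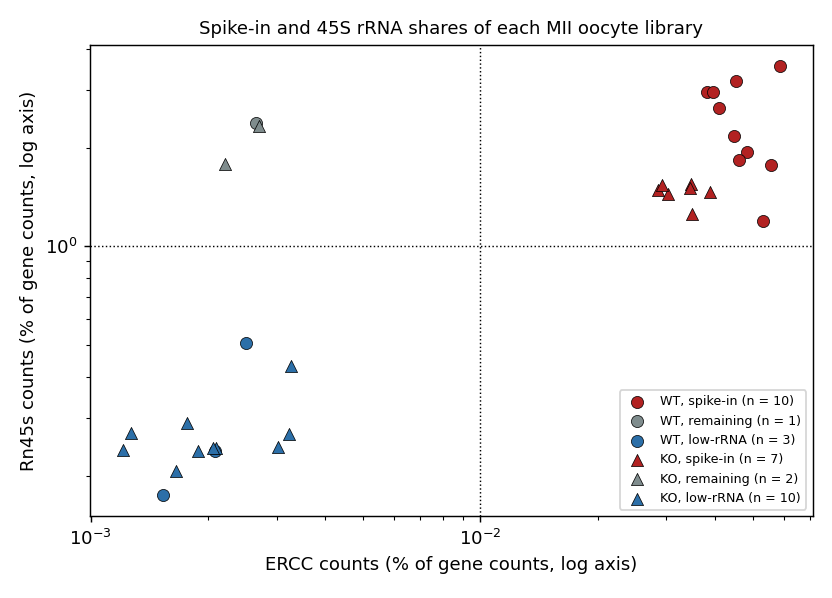
ERCC share (x axis, % of gene counts, log axis) and Rn45s share (y axis, % of gene counts, log axis) of each MII oocyte library, with WT as circles and KO as triangles, and the thresholds of 0.01% and 1% as dotted lines. The spike-in libraries sit at the upper right, the low-rRNA libraries at the lower left, and 1 WT and 2 KO libraries at the upper left belong to neither set.

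All 13 libraries carried an oocyte profile. Of 15 oocyte markers, 13 reached 10 CPM (read counts scaled by the library's total of gene counts) in every spike-in WT library and 14 in every low-rRNA WT library. Their summed level was 7131 to 11088 CPM in spike-in libraries and 20115 to 26051 CPM in low-rRNA libraries. Markers of cumulus and granulosa cells, which surround the egg in the follicle, summed to 64.5 to 84.5 CPM and 66.9 to 85.6 CPM over 16 genes, of which 4 and 5 had no count. Markers of the 2-cell embryo summed to 1.78 to 12.1 CPM and 1.149 to 10.4 CPM. On these short marker sets the cumulus and 2-cell sums overlapped between the sets of libraries and the oocyte sum did not. Longer lists gave the other order. A list of 30 oocyte genes summed to 36348 to 39176 CPM in spike-in WT libraries and 35772 to 43553 CPM in low-rRNA WT libraries, with overlap. A list of 31 transcripts of the 2-cell stage summed to 52.5 to 114 CPM and 10.6 to 27.3 CPM, without overlap, and most of its counts in the spike-in set came from 1 gene, Eif1ax. In the KO pair, Nlrp14 stood at 46.7 CPM in the spike-in pool and 24.8 CPM in the low-rRNA pool, against 392 and 647 CPM in the same WT pools.

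Of 6504 genes at 10 CPM or more in either WT pool, 24.1% (1569 genes) were at least 2-fold higher and 19.1% (1240 genes) at least 2-fold lower in the spike-in pool than in the low-rRNA pool. The median log2 ratio over all 6504 was 0.17. The balance of higher and lower genes depended on scaling, with 1382 higher and 1397 lower under TMM and 1449 higher and 1327 lower under DESeq2 factors. Every spike-in library exceeded every low-rRNA library for 21.5% of genes (1401), and every spike-in library lay below every low-rRNA library for 17.6% (1143). Both criteria were met by 1112 higher and 934 lower genes. At 16-fold or more, 25 genes were higher and 84 lower. The lower genes took 9.11% of counts in the spike-in pool and 30.5% in the low-rRNA pool, and the higher genes took 27.7% and 8.57%. Among 2235 genes at 50 CPM or more in both pools, the median SD of log2 CPM between libraries was 0.264 in the spike-in set and 0.272 in the low-rRNA set. For 918 of these genes the ratio exceeded 2 SD of the wider set.

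Genes apart were found at low and at high levels. Below a mean of 10 CPM, 46.2% of 545 genes were higher and 25.5% lower in the spike-in pool, whereas from 1000 CPM up 18.4% of 125 genes were higher and 24.0% lower. A gene with a mean under 10 CPM was measured only through its higher pool and so had to differ, and counts over measured genes are therefore a description. Differences were also present at every higher level of expression.

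Libraries of a set resembled each other across genotypes more than libraries of 1 genotype did across sets. Pearson's r of log2(CPM + 1) over 6179 genes, given as a description, ran from 0.868 to 0.944 between spike-in WT and spike-in KO libraries and from 0.810 to 0.943 between low-rRNA WT and low-rRNA KO libraries. Between spike-in WT and low-rRNA WT libraries it ran from 0.665 to 0.756. Within the spike-in WT set it was 0.911 to 0.966, and within the low-rRNA WT set 0.875 to 0.928. Replicate 14 had a median r of 0.793 with the spike-in WT libraries and 0.869 with the low-rRNA ones, although its Rn45s share was that of a spike-in library. Its highest values, 0.946 and 0.958, were with the 2 KO libraries that also belonged to neither set.

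**Figure D2:**
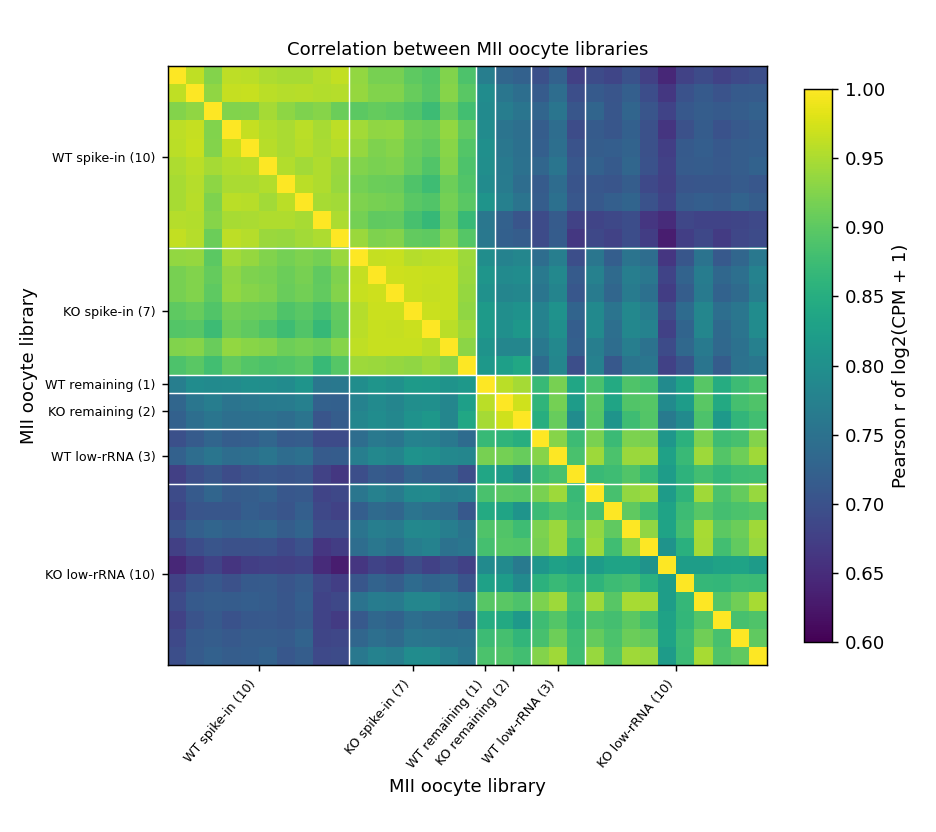
Pearson's r of log2(CPM + 1) between all 33 MII oocyte libraries (both axes, colour scale from 0.6 to 1), ordered by set and genotype, with the number of libraries in brackets. The WT and KO spike-in libraries form 1 bright block, and the low-rRNA libraries form a second, more varied one with the 3 remaining libraries.

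Mos encodes the kinase whose activity holds the egg at metaphase II. It had 0.230, 1.72 and 3.07 CPM as the lowest, median and highest value of the spike-in WT libraries, against 465, 632 and 391 CPM in low-rRNA replicates 1, 2 and 3. Every spike-in egg was far below every low-rRNA egg. Pooled levels of 1.69 and 506 CPM gave a log2 ratio of -8.22 (95% interval -8.51 to -7.95), which is 298-fold lower and the lowest ratio among the named genes. Replicate 14 had 806 CPM of Mos, above all 3 low-rRNA libraries. In KO eggs the lowest, median and highest values were 1.59, 4.62 and 8.33 CPM in the spike-in set and 344, 531 and 634 CPM in the low-rRNA set, a log2 ratio of -6.70.

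Plat encodes tissue-type plasminogen activator, a secreted protease whose mRNA is kept silent with a short tail until maturation. Its lowest, median and highest values were 11.45, 17.4 and 31.5 CPM in spike-in WT eggs, against 3130, 3189 and 1670 CPM in low-rRNA replicates 1, 2 and 3. The sets did not overlap, and the log2 ratio of the pools was -7.21 (-7.30 to -7.13), or 148-fold lower. Replicate 14 had 3587 CPM. In KO eggs Plat had a ratio of -6.00, again without overlap.

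Pabpn1l, the poly(A)-binding protein of eggs and early embryos, ranged from 10.7 to 23.3 CPM with a median of 17.8 CPM in spike-in WT eggs. The low-rRNA replicates 1, 2 and 3 had 301, 250 and 277 CPM, and replicate 14 had 232 CPM. The log2 ratio was -3.88 (-3.97 to -3.79), a 14.7-fold lower level with no overlap, and in KO eggs it was -2.92, also with no overlap. For all 3 of these genes replicate 14 therefore stood with the low-rRNA eggs.

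Beside Mos and Plat, the 10 lowest ratios that met the rule for named genes were those of Sema4b, Tmem59, Tpra1, Saraf, Slc35b3, Il1rap, Tmem39b, Btg1, Dgat2 and Leo1. Tmem59, a membrane protein of the secretory pathway, had 8.28, 16.7 and 24.1 CPM as lowest, median and highest value of spike-in WT eggs and 1457 to 1822 CPM in low-rRNA WT eggs, a log2 ratio of -6.77. Tpra1, a transmembrane protein, was 106-fold lower at -6.73, and Saraf, which curbs store-operated calcium entry, 92.1-fold lower at -6.53. The semaphorin Sema4b stood at -7.57, the PAPS transporter Slc35b3 at -6.33 and the interleukin-1 co-receptor Il1rap at -6.09. Leo1, a subunit of the PAF1 transcription elongation complex, stood at -5.81, and Dgat2, which makes triglycerides, at -5.90. Tmem39b stood at -5.94 and Btg1, of an antiproliferative family, at -5.93. In the KO pair 9 of the 10 were lower without overlap, beside 9.17% of 6544 genes measured in KO. Their log2 ratios ran from -6.21 for Sema4b to -3.38 for Btg1. The other, Dgat2, overlapped between KO sets at -2.63.

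Some of these ratios rested on 1 library. Sema4b had 13 counts in all spike-in WT libraries, and without replicate 6 its ratio was -8.83. Tmem39b had 25 counts, and without replicate 12 its ratio was -8.79. Il1rap stood at -6.92 without replicate 12, Dgat2 at -6.57 without replicate 7 and Btg1 at -6.61 without replicate 9. Sema4b stood at -6.93 without low-rRNA replicate 3.

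**Figure D3:**
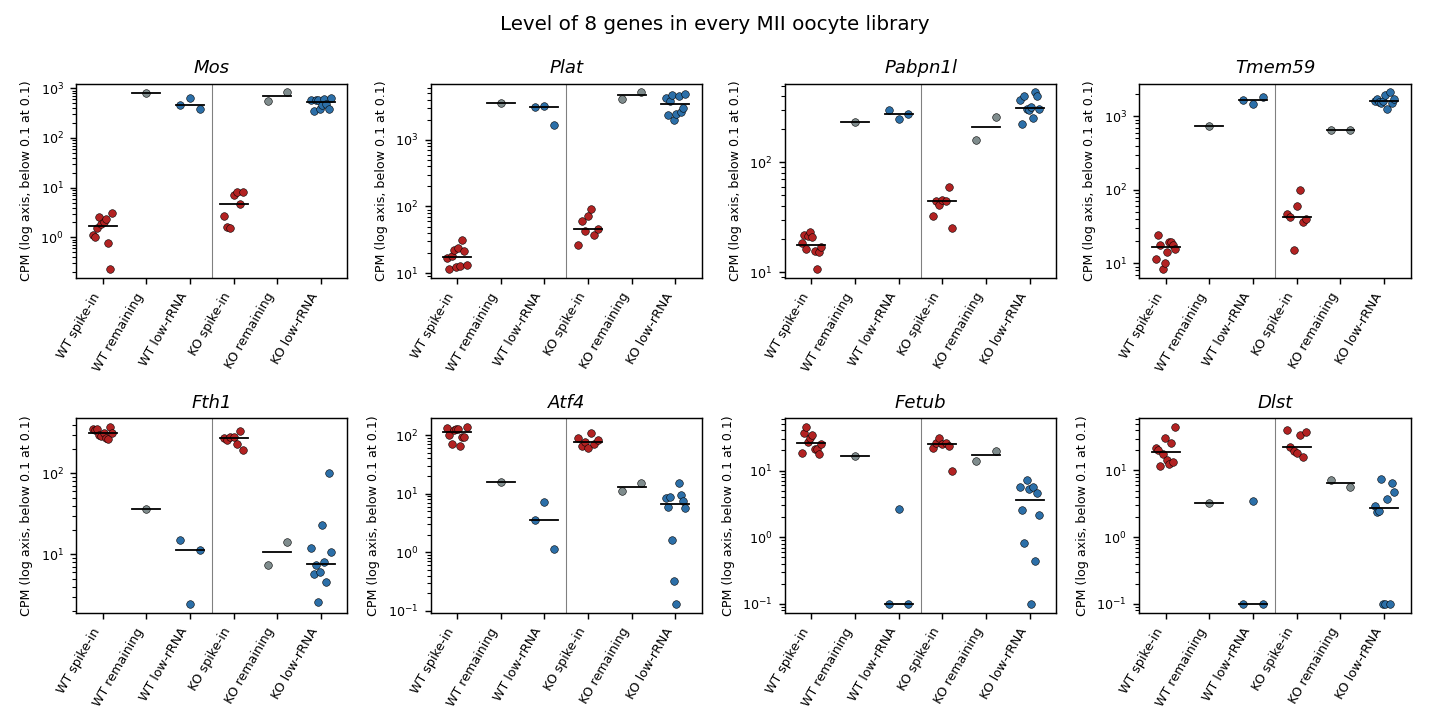
Level of 8 genes (y axis, CPM, log axis, values below 0.1 drawn at 0.1) in every MII oocyte library, by genotype and set on the x axis, with the median of each set as a black bar. Mos, Plat, Pabpn1l and Tmem59 are lower in the spike-in libraries of both genotypes and Fth1, Atf4, Fetub and Dlst are higher, and the remaining libraries are near the low-rRNA ones for Mos, Plat and Pabpn1l.

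On the other side, Ptcd2, a mitochondrial RNA-binding protein, and Vipas39, a vesicle trafficking factor, had no count in the 3 low-rRNA WT libraries. Spike-in WT eggs had a median of 42.6 CPM of Ptcd2 and 25.6 CPM of Vipas39. Against a floor of 3 counts over the low-rRNA set, they were at least 505-fold and at least 327-fold higher. In KO eggs both had counts in the low-rRNA set, and the log2 ratios were 3.09 and 2.59 without overlap.

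Fth1, the heavy chain of the iron store ferritin, had 262, 316 and 371 CPM as lowest, median and highest value of spike-in WT eggs, against 15.3, 2.45 and 11.3 CPM in low-rRNA replicates 1, 2 and 3. Its log2 ratio was 5.11 (4.95 to 5.27), a 34.5-fold higher level. KO eggs gave 3.91 without overlap, although KO low-rRNA replicate 9 reached 102 CPM while the other 9 had 2.56 to 23.2 CPM. Atf4, the transcription factor of the integrated stress response, had 66.5 to 137 CPM in spike-in WT eggs and 1.13 to 7.13 CPM in low-rRNA WT eggs, a ratio of 4.75, with 3.65 in KO eggs. The KO sets did not overlap for Atf4 either, whereas a lack of overlap in WT was a condition for naming both genes.

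The other 8 of the 12 highest ratios that met the rule for named genes belonged to Akap6 (7.75), Htra1 (7.06), Fetub (4.71), Ppp2ca (4.59), Cnn1 (4.30), Pvt1 (4.23), Xlr3c (3.99) and Dlst (3.99). Among them are Fetub, the inhibitor fetuin-B that keeps the zona pellucida from hardening, Ppp2ca, the catalytic subunit of protein phosphatase 2A, and Dlst, an enzyme subunit of the citric acid cycle. Akap6, which anchors protein kinase A, had 7 counts in the low-rRNA WT set, with an interval of 6.70 to 9.06 for its ratio. In KO eggs its ratio was 0.72 and its sets overlapped, so the WT difference was not seen there at that size. KO sets also overlapped for Htra1, Ppp2ca and Xlr3c, whose ratios were 3.28, 1.96 and 2.59. Xlr3c belongs to a family of near-identical X-linked copies, so its reads may be shared among them.

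Most counts of several of these genes in the low-rRNA WT set came from 1 library. Without replicate 2 the ratio was 5.58 for Atf4 and 4.82 for Xlr3c. Cnn1 and Ppp2ca had no count in low-rRNA replicates 1 and 3. Their values without replicate 2, 7.78 and 7.17, are therefore bounds set by the floor. Dlst (8.86) and Fetub (8.20) then rested on at most 0.0943 CPM in each of replicates 1 and 3. Without replicate 2 the floor alone lowered the bounds of Ptcd2 and Vipas39 to 8.30 and 7.67, because 3 counts then stand against fewer reads. With replicate 14 in the low-rRNA pool the ratios were 5.67 for Ptcd2, 4.12 for Vipas39, 5.12 for Akap6, 4.94 for Htra1, 2.65 for Fetub, 3.18 for Ppp2ca and 2.05 for Cnn1. Htra1 had no count in low-rRNA replicates 2 and 3, so its 8.63 without replicate 1 is also a bound. It stood at 6.38 without replicate 2, and Akap6 at 8.42 without replicate 1.

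Neighbours of Mos, Plat, Pabpn1l and the genes with the 12 highest and 12 lowest ratios under the rule for named genes were looked up. By gene span in RefSeq (GRCm38.p6, used for neighbours and not for positions), 10 of these 25 genes overlap another gene. Pabpn1l holds Mir6396 and Dlst overlaps Prox2, for example. Whether counting used strand is not given in the sources used here, so reads of overlapping genes cannot be told apart.

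The KO pair gave the same direction for nearly all genes apart in WT. At the same threshold 23.9% of 6544 genes were higher and 13.6% lower in the KO spike-in pool. KO spike-in libraries were all above the KO low-rRNA libraries for 18.1% of genes and all below for 9.17%. Of 1451 genes higher in spike-in WT eggs and measured in both genotypes, 1037 (71.5%) were at least 2-fold higher in spike-in KO eggs, and 1415 (97.5%) had a ratio above 0. Of 1166 lower genes, 686 (58.8%) were at least 2-fold lower in KO and 1082 (92.8%) had a ratio below 0. Over all 6179 genes measured in both, 22.9% were higher and 13.6% lower in KO. The median log2 ratio over the 6544 genes measured in KO was 0.27, so most of these genes also had a ratio above 0. Across these genes the ratios had a Pearson's r of 0.857 and a Spearman's rho of 0.842, given as a description since genes are not independent replicates.

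The lower genes had a median log2 ratio of -1.68 in WT and -1.20 in KO, and the higher genes 1.58 in WT and 1.39 in KO. These genes were chosen by their WT ratios, and whether the genotypes differ in the size of the ratios was not tested. At 2-fold the directions were opposite for 4 genes. They were 0610009B22Rik, higher in WT, and Anapc2, Reep4 and Tfe3, lower in WT. For 0610009B22Rik the ratio was 1.34 in WT and -1.46 in KO, and for Anapc2, a subunit of the anaphase-promoting complex, -1.89 and 1.02, with overlapping libraries in both genotypes. Among the genes apart in KO, 63.6% were higher, but TMM and DESeq2 scaling put that split at 53.0 and 52.8%.

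**Figure D4:**
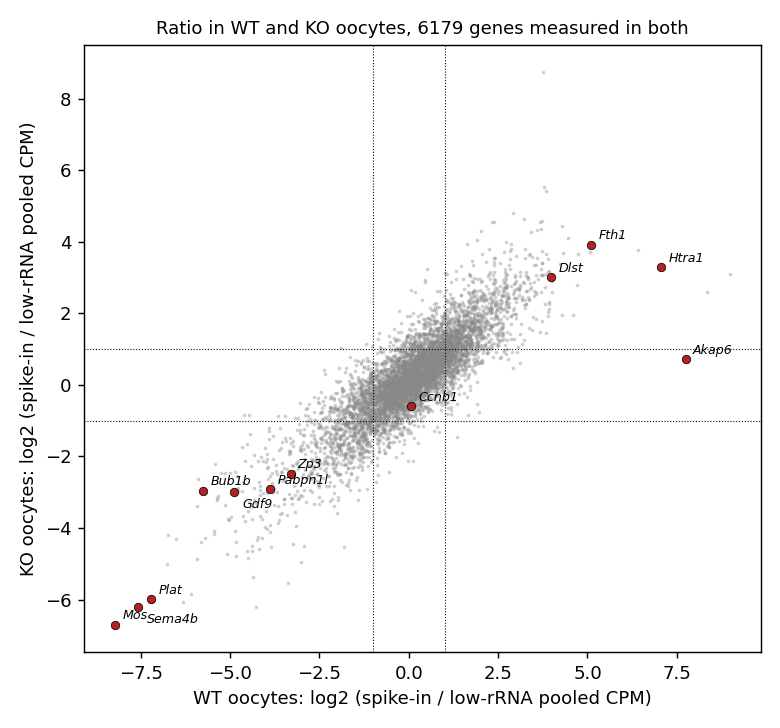
Log2 ratio of pooled CPM, spike-in over low-rRNA, in WT (x axis) and KO (y axis) oocytes for 6179 genes measured in both, with 12 genes named and 2-fold marked by dotted lines. Genes lie along the diagonal (r = 0.857), Mos, Plat and Sema4b are at its low end, and Akap6 is far from 0 in WT only.

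Candidate mRNAs of cytoplasmic polyadenylation lay on both sides. A list of 29 mRNAs taken as candidates for recruitment by polyadenylation at maturation held 6 higher and 6 lower members in spike-in WT eggs, 20.7% each, beside 24.1 and 19.1% of all genes. Its median log2 ratio was 0.06, beside 0.17 over all genes, and its sign turned under TMM (-0.05) and DESeq2 scaling (-0.01). The lower members were Mos, Plat, the checkpoint kinase Bub1b (-5.75), the spindle motor Kif11 (-3.18), the decapping cofactor Dcp1a (-1.78) and the replication licensing factor Cdc6 (-1.42). The higher members were the decapping enzyme Dcp2 (2.75), the germ cell RNA-binding protein Dazl (1.57), Oosp1 (1.45), Racgap1 (1.42) and the deadenylation factors Btg4 (1.22) and Cnot6l (1.02). Ccnb1, the cyclin B1 mRNA that is a classic target of the process, had a pooled level of 3739 CPM in the spike-in set, against 3577 CPM in the low-rRNA set, a WT ratio of 0.06 with overlapping libraries. In KO eggs 3 of 29 were higher and 5 lower (10.3 and 17.2%, beside 23.9 and 13.6% of all genes), with a median of 0.03. The summed level of the list also overlapped between the WT sets, with 51551 to 63398 CPM and 53673 to 59754 CPM.

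Candidates for tail loss or decay at maturation also lay on both sides. Of 21 measured members, 5 were higher and 7 lower in spike-in WT eggs (23.8 and 33.3%, beside 24.1 and 19.1% of all genes), with a median ratio of -0.06. The lower ones included Gdf9, a growth factor the oocyte secretes (-4.90), the tubulin Tubb5 (-4.11), the zona pellucida protein Zp3 (-3.31) and Ooep, of the subcortical maternal complex (-2.07). Gdf9 had 114 to 208 CPM in spike-in WT eggs, against 3368 to 5974 CPM in low-rRNA WT eggs. The higher ones included the oocyte transcription factor Lhx8 (2.69), Uchl1 (2.41), Rfpl4 (1.79) and the elongation factor Eef1a1 (1.70). Of 22 measured in KO eggs, 6 were higher and 5 lower (27.3 and 22.7%, beside 23.9 and 13.6% of all genes). Transcripts of both candidate lists thus lay on both sides, in both genotypes.

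Among 45 measured factors that bind, lengthen, shorten or store behind poly(A) tails, 11 were higher and 10 lower in spike-in WT eggs (24.4 and 22.2%, beside 24.1 and 19.1% of all genes), with a median of 0.26. In KO eggs 6 were higher and 6 lower, 13.3% each, beside 23.9 and 13.6%. Lower in both genotypes at 2-fold were Pabpn1l, the nuclear poly(A) polymerase Papola (-3.57 in WT, -2.44 in KO), the polyadenylation element binding protein Cpeb1 (-1.71, -1.69), the deadenylase subunit Cnot11 (-1.44, -1.60) and Paip1 (-1.04, -1.84). Papola had 21.5 to 41.1 CPM in spike-in WT eggs and 358 to 400 CPM in low-rRNA WT eggs. Higher in both were Dcp2, the eIF4E-like Eif4e1b (2.05, 1.90), Cnot2 (1.89, 1.73), Eif4enif1 (1.31, 1.65), which holds mRNA in storage, and Pabpc4 (1.16, 1.53). Libraries of the WT sets overlapped for Paip1 and Pabpc4, and those of the KO sets for Cnot11. Without low-rRNA replicate 3 the WT ratio was -0.50 for Paip1 and 0.90 for Pabpc4, so neither was then 2-fold apart. Zar1, a maternal RNA-binding protein, was at -1.65 in WT and 0.79 in KO.

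Of 37 measured genes of meiotic maturation, 7 were higher and 7 lower in spike-in WT eggs (18.9% each, beside 24.1 and 19.1% of all genes), with a median of -0.13. In KO eggs 5 were higher and 7 lower (the shares of all genes were 23.9 and 13.6%). Their summed level was lower without overlap in both genotypes, at 35966 to 46022 CPM in spike-in WT eggs and 48039 to 50973 CPM in low-rRNA WT eggs. In KO eggs it was 30581 to 37915 CPM in the spike-in set and 44537 to 53548 CPM in the low-rRNA set. Replicate 14, at 34081 CPM, lay below every WT library of both sets. The lower members included, beside Mos and Bub1b, the kinase Plk1 (-2.31), Fbxo5 (-1.46), an inhibitor of the anaphase-promoting complex, and Cdc20 (-1.40), its activator. The higher ones included the phosphatase Cdc25b (5.92), with 7 counts in the low-rRNA set, and the survivin gene Birc5 (2.90). Mapk3 stood at 1.97.

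Of 27 measured oocyte-enriched genes, 7 were higher and 9 lower in WT (25.9 and 33.3%, beside 24.1 and 19.1% of all genes), with a median of -0.21. In KO eggs 7 were higher and 5 lower (25.9 and 18.5%, beside 23.9 and 13.6%), and the median was 0.29. The lower members included Gdf9, Zp3, the egg protease Astl (-4.47) and the oocyte linker histone H1foo, at 2722 CPM in the spike-in pool and 13772 CPM in the low-rRNA pool (-2.34). The higher members included Oog1 (3.23, 2.84 in KO), Lhx8 and Rfpl4.

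Measured energy and translation genes were higher more often than lower, and some of them were measured only through the spike-in pool. Of 40 measured nuclear-encoded respiratory chain genes, 24 (60%) were higher and 3 lower in spike-in WT eggs, beside 24.1 and 19.1% of all genes, and the median ratio was 1.27. In KO eggs 27 of 45 were higher and 5 lower (60 and 11.1%, beside 23.9 and 13.6%), with a median of 1.55. The largest were Atp5j2 (3.504) of ATP synthase, Ndufb5 (2.96) and Ndufa4 (2.85), named for complex I, and Cox6c (2.75) of cytochrome oxidase. Atp5j2 had at most 8.11 CPM in any low-rRNA WT library. It was measured only through the spike-in pool and so had to be higher. Ndufa4 and Cox6c were above 10 CPM in every low-rRNA WT library. Cox6c had 54.4, 191 and 245 CPM as lowest, median and highest value of spike-in WT eggs, against 21.1 to 31.8 CPM in low-rRNA WT eggs. Lower members were Atp5g1 (-2.52), Ndufa1 (-1.43) and Uqcrc2 (-1.20).

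Of 30 measured cytosolic ribosomal protein genes, 13 were higher and 2 lower (43.3 and 6.7%, beside 24.1 and 19.1% of all genes), with a median of 0.92. KO eggs had 14 higher and 3 lower of 33 (42.4 and 9.1%, beside 23.9 and 13.6%), with a median of 0.86. Rpl31 (3.38), Rps28 (2.40) and Rpl39l (2.15) were highest, and Rpl13 (-3.35) and Rpl17 (-1.30) were the lower members. In low-rRNA WT libraries Rpl31, Rps28 and Rpl39l had at most 4.97, 4.06 and 9.90 CPM. They were measured only through the spike-in pool and so had to be higher. Rpl31 stood at 3.98 without low-rRNA replicate 1. Only 30 of the 82 ribosomal protein symbols in the table were measured, and many of these genes have processed copies elsewhere in the genome. How shared reads were counted is not given in the sources used here, so these levels are uncertain. For mitochondrial ribosomal proteins 19 of 50 were higher and 7 lower (38.0 and 14.0%, beside 24.1 and 19.1%), median 0.66. In KO 22 of 51 were higher and 7 lower (43.1 and 13.7%, beside 23.9 and 13.6%), median 0.65. Their extremes were Mrpl16 (3.75) and Mrps7 (3.52) against Mrpl22 (-4.01) and Mrps36 (-2.94). Mrpl16 and Mrps7 had at most 4.14 and 3.14 CPM in low-rRNA WT libraries and were measured only through the spike-in pool. Shares and medians over measured members of these lists are therefore a description.

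The medians of translation and energy genes were smaller when replicate 14 joined the low-rRNA pool. The WT median was then 0.16 for cytosolic ribosomal proteins, 0.45 for mitochondrial ones and 0.98 for the respiratory chain. In that library Ndufa4 had 294 CPM and Cox6c 126 CPM, nearer to the spike-in set, and with it the ratio of Ndufa4 was 0.95. Its Mos and Plat levels, by contrast, were above those of the low-rRNA set, as given above. Over all genes apart in WT, it lay nearer the low-rRNA pool for 68.0% of the lower genes and 54.6% of the higher ones.

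**Figure D5:**
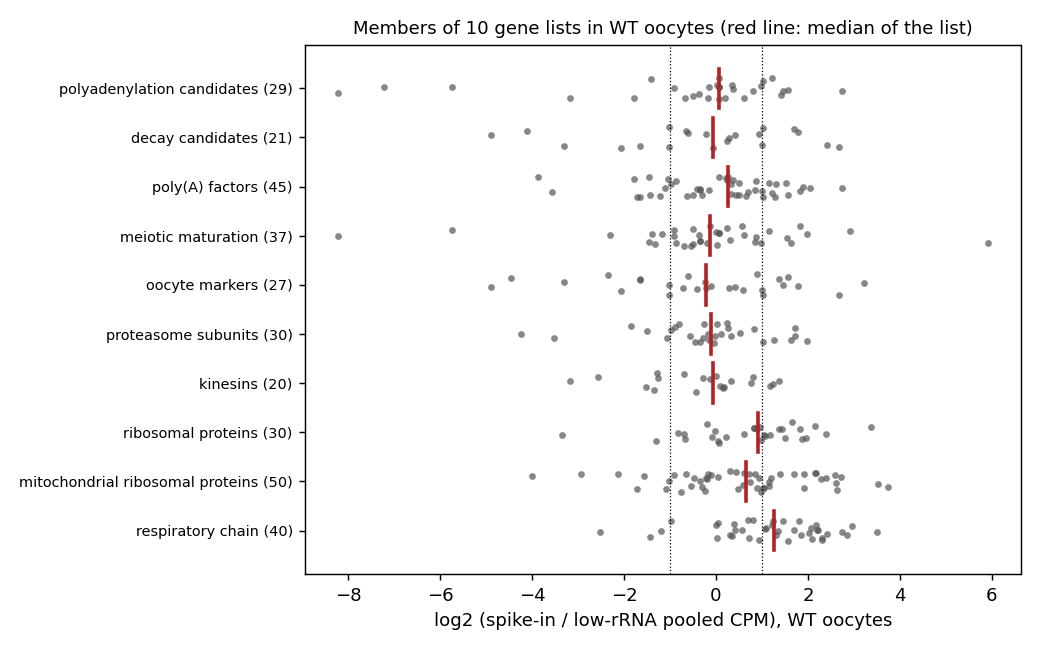
Log2 ratio of pooled CPM, spike-in over low-rRNA, in WT oocytes (x axis) for each measured member of 10 gene lists (rows, number of members in brackets), with the list median as a red line and 2-fold as dotted lines. Candidates of polyadenylation and decay spread to both sides with medians of 0.06 and -0.06, while the ribosomal protein and respiratory chain medians are 0.92 and 1.27.

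Of 30 proteasome genes 6 were higher and 5 lower in WT (20.0 and 16.7%, beside 24.1 and 19.1% of all genes), with a median of -0.10. Psma5 stood at -4.24 and Psmc6 at 1.97. Of 20 kinesins 3 were higher and 6 lower (15.0 and 30%), median -0.07. In KO 1 of 18 was higher and 4 lower (5.6 and 22.2%, beside 23.9 and 13.6%), median -0.49. Of 11 stress and heat shock genes 2 were higher (18.2%), Atf4 and the mitochondrial co-chaperone Hspe1 (2.29), and 5 were lower (45.5%), among them the chaperones Hspa8 (-2.50) and Hspa5 (-2.07). In KO 3 of 10 were higher and 2 lower, beside the same shares of all genes.

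Replication-dependent histone genes, whose mRNAs normally lack a poly(A) tail, had 4 measured members in WT. Hist1h2ba (3.59), Hist1h4c (3.44) and Hist1h1a (3.18) were higher and Hist1h2aa (-2.41) lower, and their KO ratios were 4.34, 3.56, 2.45 and -2.60. The higher ones had at most 5.89 CPM in any low-rRNA WT library. They were measured only through the spike-in pool and so had to be higher, and their direction in WT is a description. Hist1h2ba overlapped between the WT sets. Each WT ratio moved with 1 low-rRNA library. Hist1h2ba stood at 5.21 and Hist1h1a at 3.91 without replicate 1, and Hist1h4c at 4.30 and Hist1h2aa at -1.30 without replicate 2. Their pooled sum over all 68 symbols reached 117 CPM in the spike-in pool of WT eggs, against 56.7 CPM in their low-rRNA pool. Single libraries overlapped, with 58.5 to 177 CPM in the spike-in set and 37.8, 93.9 and 30.4 CPM in low-rRNA replicates 1, 2 and 3. Of other RNAs, 1 of 126 small noncoding symbols was measured, which is Rn45s itself. Of a short list of long noncoding RNAs, Malat1 stood at 1.44 and Gas5 at 0.62, both with overlap. Malat1 stood at 0.0028 when replicate 14 joined the low-rRNA pool. The 2 microRNA genes measured, Mir684-1 (-4.32) and the host transcript Mir22hg (-1.88), were lower, which says nothing of mature microRNAs.

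Of 22 cumulus and granulosa markers 2 were measured, Cyp19a1 (-0.30) and Nr5a2 (0.46), and neither was 2-fold apart. Of 31 transcripts of zygotic genome activation 1 was measured, the translation initiation factor Eif1ax, at 46.6 to 108 CPM in spike-in WT eggs and 7.13 to 16.04 CPM in low-rRNA WT eggs (2.71, and 2.47 in KO). The table held no mitochondrially encoded RNA, so that share was not measured.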

How the data were processed

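RNA counts of 33 single MII oocytes were used. The authors deposited whole-number read counts for each gene symbol, which had not been normalized. The submitters' processing notes list STAR 2.6.0a, HTSeq 0.10.0, featureCounts 2.0.1, cutadapt 1.15, Trim Galore 0.6.6 and build mm9 without saying which step each served. The single-cell RNA library method is not given in the sources used here. Of 24542 rows, 92 were ERCC spike-ins and were kept out of totals.

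Libraries were sorted by ERCC share (0.01%) and Rn45s share (1%). Counts were summed per set, and log2 ratios of pooled CPM, spike-in over low-rRNA, were given an exact conditional Poisson interval at 95%. A gene counted as measured if 1 of its 2 pools reached 10 CPM, and 2-fold counted as apart. A pool at 0 was set to 3 counts. No test was run, since each set is 1 sample. The ratios were tested on simulated data. Among pairs of libraries of the same genotype and set, none was a copy of the other, with a smallest chi-square per gene of 13.1. Pairs across sets or genotypes were not checked in this way.

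Members and gene lists were chosen with earlier results of these data known. Named were Mos, Plat and Pabpn1l, the 12 highest and 12 lowest WT ratios among genes at 20 CPM or more in the higher pool whose libraries did not overlap (predicted models, Mir and Snor genes passed over), up to 4 members per list, and poly(A) factors apart in both genotypes. Other list members, and the 4 genes with opposite directions, were named after their values were seen. Alternatives used TMM factors (edgeR 4.0.16), DESeq2 1.42.0 size factors, other filters and each library left out, with Python 3.11.15, scipy 1.17.1 and R 4.3.3.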

Additional observations from a re-analysis of the deposited data

Results flagged for a closer look

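Of 37 sets of library values looked at for a sample far from the others, 7 held one. Chance alone gives one in about 5% of sets of independent, normally spread values. The sets here share libraries, and Sema4b and Tmem39b had no count in most spike-in WT libraries. That rate is therefore no measure of how unusual the 7 are. In WT spike-in replicate 6, Ptcd2 (18.3 CPM), Akap6 (6.17 CPM) and Pvt1 (47.4 CPM) were far below the other 9 libraries, and Sema4b (1.54 CPM) was far above them. Tmem39b was far above the rest in WT spike-in replicate 12, at 2.53 CPM. The Rn45s share of 1.25% in KO spike-in replicate 14 was far below the other 6, and that of 0.432% in KO low-rRNA replicate 1 far above the other 9.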

How the results depend on the processing

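The counts of genes at least 2-fold higher and lower in spike-in oocytes stayed within 1.5 times under TMM and DESeq2 scaling, without Rn45s in the totals, with a 5 CPM filter, with medians over libraries and with no limit on Rn45s. TMM shifted the median ratio of all genes by -0.13 in WT and -0.18 in KO, and DESeq2 factors by -0.08 and -0.18. With a 50 CPM filter 729 genes were higher and 675 lower in WT, and 724 and 526 in KO. With 100 CPM these were 472, 431, 443 and 357, with no filter 4716, 2717, 4792 and 2515, and at 4-fold 479, 443, 445 and 307, which follows from fewer or more genes counted. Of the genes apart in WT, 65.8% were apart on the same side in KO. That share was 63.6% with TMM, 63.3% with DESeq2 factors, 64.0% with a 5 CPM filter, 70.8% with 50 CPM, 73.25% with 100 CPM, 52.8% with no filter and 57.1% at 4-fold, and the cause was not tested. Leaving out 1 library at a time gave 1496 to 1795 higher and 1195 to 1322 lower genes in WT, 1519 to 1614 and 870 to 944 in KO, and a shared share of 62.6 to 67.4%. Mos stayed between -8.39 and -7.71, Plat between -7.45 and -7.05 and Pabpn1l between -3.99 and -3.81 under every setting run. No named gene and no list median that was 2-fold apart changed sign. An ERCC threshold of 0.1% leaves no spike-in library and 0.001% no low-rRNA library, so neither gave a value. The tables at hand give no transcript length or GC content for this build, so those bins were not run. No paired analysis was possible because no test was run and shared replicate numbers name no animal. Some of the largest ratios rest on few or no counts in the lower pool, which limits them.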
